A study of Homo sapiens with 6 samples.

Results

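The genes described here encode the subunits of the RNA polymerases I, II and III, the Mediator and Integrator complexes, the TBP-associated factors (TAFs) and the GTF2 general transcription factors. A few, such as POLR2J4 and INTS4L1, are copies of such genes. They were chosen by symbol: POLR1, POLR2, POLR3 or GTF2 as a prefix, or MED, INTS or TAF followed by a digit. Of 125 rows with such a symbol, 12 pseudogene or antisense symbols were left out, which gave 113 of the 23013 genes in the table.

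ORC1, the large subunit of the origin recognition complex, was immunoprecipitated without crosslinking from nuclear extracts of HCT116 cells, and the RNA recovered with it was sequenced (native RIP-seq). HCT116 is an established human colorectal carcinoma cell line, and all libraries came from untreated cells grown in RPMI. The 3 ORC1 IP libraries were compared with 3 input libraries, made from nuclear RNA with no antibody, to ask which RNAs are enriched with ORC1. The study describes the anti-ORC1 sequencing as triplicate experiments and reports no detectable RNA with a control IgG. No control antibody library was analysed here. Nothing in the labels says that the replicates came from separate cultures, so p-values measure the spread between these libraries, which may be technical.

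RNA polymerase I makes the large ribosomal RNA precursor, polymerase II makes messenger RNAs and most small nuclear RNAs, and polymerase III makes transfer RNAs and other short RNAs. Mediator connects DNA-bound activators to polymerase II, TFIID and the other general factors place it at promoters, and Integrator cleaves nascent transcripts and ends transcription early at many genes. Here it is the RNAs of these genes, not their proteins, that were measured.

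The inputs held 13703033 to 17248924 reads on genes and the ORC1 IPs 25134156 to 36008733. ORC1 IP replicate 2 stood apart from the other libraries on principal component 2, which held 29.7% of the variance (-98.9, against 50.6 and 18.6 for ORC1 IP replicates 1 and 3), so results that rest on it are given with and without it. Of 9 colon epithelial markers, 8 were matched, and their summed normalised read count was 50041 to 140276 in the inputs and 18113 to 146460 in the IPs. EPCAM ranged from 1656 to 4516, whereas VIL1 did not exceed 6.30 in any library. Of 7 markers of other cell types 3 were matched (COL1A1, VIM and ALB), with a sum of 230 to 379 in the inputs and 502 to 851 in the IPs. COL1A1 made most of that sum, and the part of these markers in the results was not tested.

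Of the 113 genes, 109 had a mean normalised read count of at least 10 and were tested. The other 4 were GTF2IRD2, GTF2IRD2B, GTF2H4 and INTS4L1. Values are counts divided by a size factor per library, and differences are on the log2(value + 1) scale, ORC1 IP minus input, with the limma standard error (SE). With limma and Benjamini-Hochberg adjustment, 3 members were higher in the ORC1 IP (TAF7, TAF4 and MED12L), where 2.28% of all 16513 genes tested were called higher. Another 3 were lower (POLR2C, POLR2G and POLR2L), against 1.42% of all genes. The median difference was 0.09 over the 109 members and 0.01 over all genes tested, and 57 members had a positive difference. The study named RNAs higher in the IP at a log2 difference above 1 with a p under 0.05 by DESeq2. Here this study threshold was applied to limma results, with an unadjusted p and in both directions. By it, 10 members were higher (10.9% of all genes) and 9 were lower (7.25%). With DESeq2 instead, 14 were higher (13.6% of all genes) and 8 lower (7.52%). In 13 members the 3 IP values lay above all 3 input values (12.7% of all genes) and in 17 they lay below (13.5%). Both the 10 and the 13 include TAF7L, which passed the filter only through its IP values. The shares of the members, 9.17% and 8.26% for the study threshold with limma and 11.9% and 15.6% for non-overlap, were near those of all genes.

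**Figure D1:**
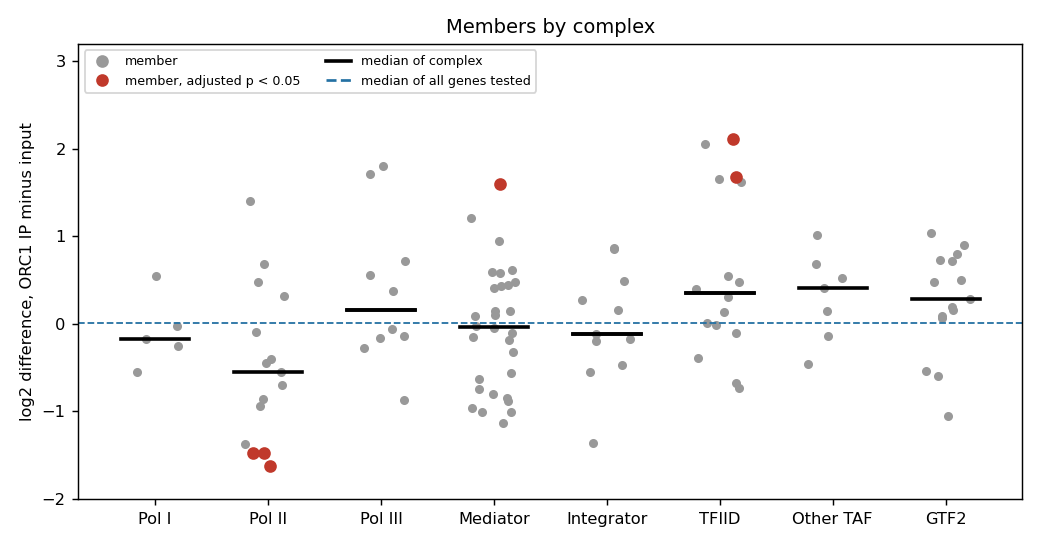
Log2 difference between ORC1 IP and input (3 libraries each) for the 109 tested members, grouped by complex. Each point is a gene, red points have an adjusted p below 0.05, black bars are the medians of the complexes and the dashed line is the median of all genes tested (0.01). The 3 lower calls lie in Pol II and the 3 higher calls in TFIID and Mediator.

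TFIID is the complex of TBP and its TAFs that recognises core promoters, and it held the largest positive differences. TAF7, a TFIID subunit that binds TAF1, lies on the minus strand of chromosome 5, where the GENCODE gene spans 141259884 to 141320784 (GRCh38) and its longest transcript, of 2295 bases, has 1 exon. Its normalised read counts were 1165, 635 and 548 in the inputs and 4763, 3136 and 2218 in the ORC1 IPs. All 3 IP values lay above every input value. The difference was 2.12 (SE 0.43, n = 3 per group, limma adjusted p = 0.0236), a 4.34-fold higher level. It was also called with the replicate number as a block (adjusted p = 0.0126) and after a correction for transcript length and GC content (2.04, adjusted p = 0.041). TAF7 shares 13.6% of its exon bases with a gene on the opposite strand. The sources do not state whether the counting used strand.

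TAF4, a scaffold subunit of TFIID, lies on chromosome 20 (GRCh38, minus strand). It had 571, 517 and 290 normalised reads in the inputs and 2117, 972 and 1369 in the IPs. The groups did not overlap, and the difference was 1.68 (SE 0.40, limma adjusted p = 0.0434; 0.0366 with the block). After the length and GC correction the difference was 1.64, with an adjusted p of 0.061.

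TAF1, the largest TFIID subunit, was 1173, 1497 and 900 in the inputs and 5918, 1539 and 5413 in the IPs. ORC1 IP replicate 2 was only just above the highest input, whereas the other IPs were far above it. The difference of 1.65 did not pass (SE 0.51, limma adjusted p = 0.0896), and without ORC1 IP replicate 2 it was 2.28 (adjusted p = 0.0011). TAF3, which reads a histone methyl mark at active promoters, had a difference of 1.62 (limma adjusted p = 0.0993; 0.0484 with the block). TAF7L, a TAF7 paralogue best known from germ cells, was low, with 10.6, 4.73 and 2.34 in the inputs and 28.8, 40.6 and 11.9 in the IPs. Its groups did not overlap, and its difference was 2.06 (limma adjusted p = 0.109).

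Over the 16 TFIID genes the median difference was 0.35, with 11 positive. At an adjusted p under 0.05 by limma, 2 were called higher (2.28% of all genes) and none lower (1.42%). By the study threshold, 5 were higher (10.9% of all genes) and none lower (7.25%). The 5 include TAF7L, which passed the filter only through its IP values. With the length and GC correction the median was 0.09, against -0.07 over all genes. In TAF9, TAF9B and TAF10 the differences were -0.39, -0.67 and -0.74, and TAF2 had 0.55. None of these passed the test. TAF9 was 1133, 730 and 656 in the inputs and 408, 1150 and 511 in the IPs, so that IP replicates 1 and 3 lay below every input and IP replicate 2 above every input. It was the single member with that pattern, which 3.95% of all genes tested showed.

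**Figure D2:**
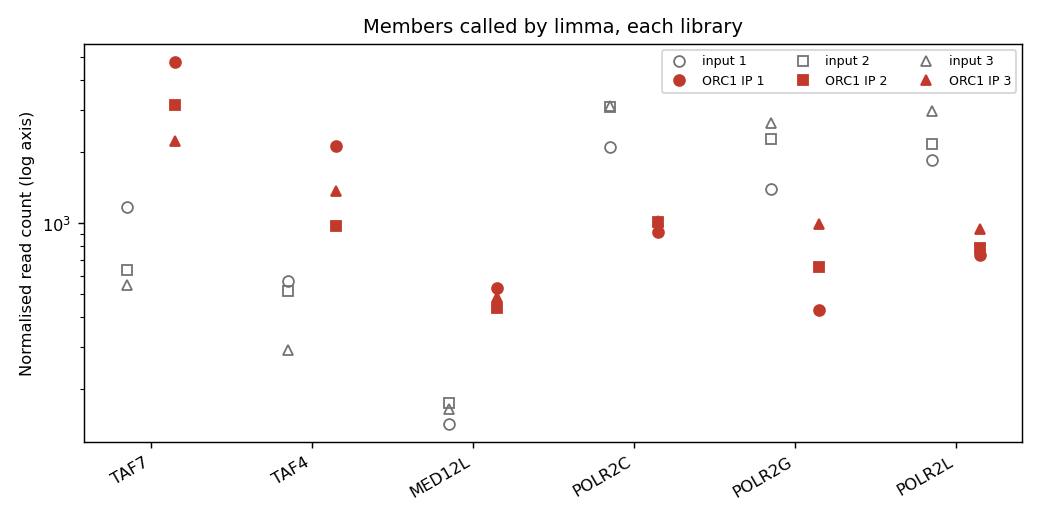
Normalised read count (log axis) of the 6 members with a limma adjusted p below 0.05, in each of the 3 input libraries (open grey) and 3 ORC1 IP libraries (red), with a marker shape per replicate number. All 3 IP values lie above the inputs for TAF7, TAF4 and MED12L and below them for POLR2C, POLR2G and POLR2L.

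Of the 10 polymerase II subunits from POLR2C to POLR2L, 3 were called lower in the ORC1 IP by limma (1.42% of all genes). In these 10, 9 had a negative difference and POLR2J a positive one (0.47, limma adjusted p = 0.709). POLR2C, which forms the assembly platform of the enzyme with POLR2J, lies on chromosome 16 (GRCh38, plus strand, 57462660 to 57472009). Its values were 2082, 3094 and 3096 in the inputs and 913, 1005 and 1018 in the IPs. The groups did not overlap, and the 3 IP values were close to each other. The difference was -1.47 (SE 0.36, limma adjusted p = 0.0443), and with the block the adjusted p was 0.0735.

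POLR2G, part of the stalk that sits beside the RNA exit channel, was 1384, 2262 and 2632 in the inputs and 431, 655 and 991 in the IPs. Every IP value was below every input value, with a difference of -1.63 (SE 0.41, limma adjusted p = 0.0494; 0.0397 with the block). POLR2L, a small subunit shared by all 3 polymerases, was 1842, 2151 and 2957 in the inputs and 736, 786 and 944 in the IPs. These groups did not overlap either, and the difference was -1.47 (SE 0.36, limma adjusted p = 0.0434; 0.0663 with the block). POLR2L shares 22.8% of its exon bases with CD151 on the opposite strand. After the length and GC correction the differences were -1.32 for POLR2C, -1.45 for POLR2G and -1.07 for POLR2L, with adjusted p of 0.056, 0.078 and 0.084.

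POLR2L belongs to the 5 subunits common to polymerases I, II and III, with POLR2E, POLR2F, POLR2H and POLR2K. All 5 had a negative difference, with a median of -0.94, and all 5 stayed negative under every alternative run, scalings included. POLR2E was 2726, 4358 and 4781 in the inputs and 1704, 1278 and 1494 in the IPs (-1.37, limma adjusted p = 0.0705). POLR2H had -0.94, POLR2K -0.85 and POLR2F -0.55. Only POLR2L passed the test among these with all libraries, and without ORC1 IP replicate 2 POLR2E, POLR2H and POLR2K also passed (limma adjusted p = 0.024, 0.045 and 0.037). Of all genes tested, 1.42% were called lower with all libraries and 6.38% without that replicate. Of all 15 POLR2 genes, 11 were negative, with a median of -0.55, and in 6 the IP values lay below all inputs, as in 13.5% of all genes. POLR2J4, a copy of POLR2J, had the largest difference of the POLR2 genes, 1.41 (limma adjusted p = 0.212). Its 3 IP values lay above all 3 inputs, as in 12.7% of all genes, and it passed the study threshold. Its counts were low, and a filter at a mean of 50 removed it. With 5 rather than 1 added to each value its difference was 1.20.

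The 2 catalytic subunits of each polymerase followed another course. POLR2A, the largest polymerase II subunit with the carboxy-terminal repeat domain, was 11799, 22021 and 12488 in the inputs and 42379, 6086 and 51829 in the IPs. IP replicates 1 and 3 lay above every input and replicate 2 below every input. The difference of 0.68 (SE 0.90, limma adjusted p = 0.711) was within the spread. POLR1A, its polymerase I counterpart, was 3732, 8181 and 4996 in the inputs and 14655, 2241 and 14676 in the IPs (0.55, limma adjusted p = 0.706). POLR2B, POLR3A and POLR3B had the same arrangement, with differences of 0.32, 0.38 and 0.56. POLR1B was -0.25, and its IP replicate 1 (3151) lay between the inputs (2263 to 4999).

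Over these 6 catalytic subunits the median difference from the mean input was 0.97 in IP replicate 1, -1.25 in replicate 2 and 1.56 in replicate 3. Over the 10 other subunits POLR2C to POLR2L it was -1.05, -0.92 and -1.13. POLR2J departed from that median in IP replicate 2, where it was 1281 against 323, 184 and 326 in the inputs. Without ORC1 IP replicate 2, POLR1A, POLR2A and POLR3B were called higher (limma adjusted p = 0.022, 0.019 and 0.023), as were 11.9% of all genes tested. The arrangement with IP replicates 1 and 3 above every input and replicate 2 below was found in 20 of the 109 members, or 18.3%, and in 7.41% of all genes tested. It included INTS1, INTS3, MED12, MED17, GTF2F1 and GTF2I.

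**Figure D3:**
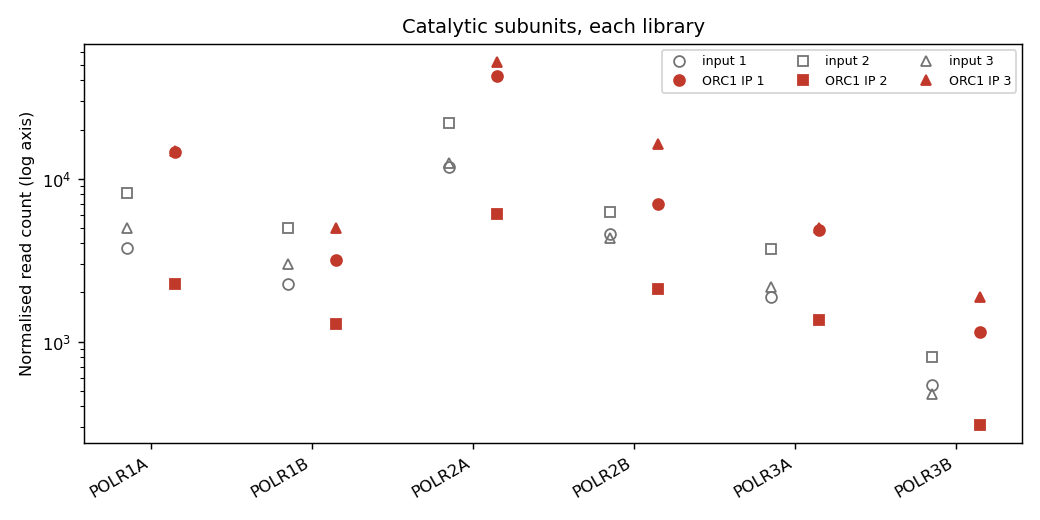
Normalised read count (log axis) of the catalytic subunits of the 3 polymerases in each input (open grey) and ORC1 IP library (red), with a marker shape per replicate number. For 5 of the 6 genes IP replicates 1 and 3 lie above every input and IP replicate 2 lies below every input; POLR1B is the exception.

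Polymerase III had 10 members with a median of 0.16, none of them called by limma with all libraries. Its largest differences were in 2 paralogues that occupy the same place in the enzyme, POLR3G, which is high in stem and tumour cells, and POLR3GL. POLR3G was 817, 306 and 297 in the inputs and 2623, 834 and 1450 in the IPs. Its lowest IP value was above its highest input. The difference was 1.80 (SE 0.50, limma adjusted p = 0.0616; 0.0223 with the block). POLR3GL was 337, 83.5 and 177 in the inputs and 669, 548 and 490 in the IPs, again without overlap (1.72, limma adjusted p = 0.0599; 0.0443 with the block). POLR3GL shares 21.1% of its exon bases with another gene on the same strand. POLR3K, a small subunit that acts in termination, lay below the inputs in all IPs, with a difference of -0.86 (limma adjusted p = 0.226). Polymerase I had 5 members with a median of -0.17, none of which passed with all libraries. Without ORC1 IP replicate 2 that median was 0.29, with 3 positive. The lowest of them was POLR1C, with -0.55 (limma adjusted p = 0.415).

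Mediator had 30 members with a median of -0.04, and of 0.10 without ORC1 IP replicate 2. Its kinase module, which binds the core reversibly and restrains it, was represented by MED12, MED12L, MED13 and MED13L. MED12L, a paralogue of MED12, lies on chromosome 3 (GRCh38, plus strand) and was 142, 175 and 165 in the inputs and 533, 440 and 490 in the IPs. The 2 groups were far apart for the spread within each. The difference was 1.59 (SE 0.34, limma adjusted p = 0.0277; 0.0469 with the block), and 0.89 after the length and GC correction (adjusted p = 0.16).

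MED13L was 9155, 9243 and 6681 in the inputs and 24222, 11399 and 25641 in the IPs, also without overlap (1.22, limma adjusted p = 0.289). MED12 and MED13 had differences of 0.44 and 0.48. All 4 MED-named genes of the kinase module were positive with all libraries, but MED13 was negative after the length and GC correction (-0.28). The module also has genes with other symbols, and these did not all go the same way. CCNC was lower in the IP by the study threshold (limma adjusted p = 0.175), whereas CDK8 and CDK19 had differences of 0.06 and 0.90. The 26 core subunits had a median of -0.13, and in 8 of them (MED9, MED16, MED18, MED20, MED24, MED28, MED29 and MED31) the IP values lay below all inputs, as in 13.5% of all genes. MED18, of the head module, was 513, 794 and 924 in the inputs and 380, 345 and 355 in the IPs (a 2.01-fold lower level, limma adjusted p = 0.119). MED27 had the lowest difference of the complex, -1.14 (limma adjusted p = 0.163), and MED1, MED14 and MED17, the subunit that binds nuclear receptors and the scaffold subunits, had 0.10, 0.15 and 0.43.

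Integrator had 11 tested members with a median of -0.11, and none passed the limma test with all libraries. Without ORC1 IP replicate 2 the median was 0.34, with 8 positive. INTS5 was 1448, 2396 and 2632 in the inputs and 1032, 452 and 1163 in the IPs, without overlap (-1.36, limma adjusted p = 0.098). INTS6 was 914, 1098 and 614 in the inputs and 2052, 1287 and 1425 in the IPs, without overlap in the other direction (0.87, limma adjusted p = 0.196; -0.05 after the length and GC correction). INTS1, INTS3 and INTS9, the last of them part of the cleavage module, had -0.11, 0.49 and -0.55. INTS4L1, a copy of INTS4 that shares 94.9% of its 50-base stretches with other genes, was under the filter, with 1.06, 0 and 0 in the inputs and 9.21, 21.5 and 7.45 in the IPs.

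The 15 tested GTF2 genes had a median of 0.29, with 12 positive and none called by limma. Under scaling by total count 8 were positive. GTF2I, a signal-responsive factor, was 927, 1174 and 827 in the inputs and 4333, 579 and 3136 in the IPs (1.04, limma adjusted p = 0.352; 1.93 and 0.0019 without ORC1 IP replicate 2). GTF2H5, the smallest TFIIH subunit, was lower in each IP than in any input (-1.06, limma adjusted p = 0.157). GTF2B and GTF2H1 had -0.54 and 0.09. GTF2H2, GTF2H2B and GTF2H2C share 94.9%, 99.8% and 66.9% of their 50-base stretches with other genes, so their counts are uncertain. Among the TAFs outside TFIID, TAF1D of the polymerase I selectivity factor had the largest difference (1.01, limma adjusted p = 0.198) and TAF6L the lowest (-0.46). TAF1D hosts small nucleolar RNAs within its span. TAF15, an RNA-binding protein of the FET family, had 0.69 (limma adjusted p = 0.496).

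Transcript length moved with these differences over all members together, but not in every IP library or complex. Over the 107 tested members with a GENCODE transcript, the Spearman correlation between the length of the longest transcript and the log2 difference was 0.27, and over the 16062 such genes it was 0.34. For IP replicates 1, 2 and 3 against the mean input it was 0.31, -0.02 and 0.40 over members. Over all genes it was 0.24, 0.16 and 0.43. By complex it was 0.61 in Pol II, 0.30 in Mediator, 0.26 in Integrator and 0.66 in the other TAFs. It was -0.04 in TFIID, -0.03 in Pol III and -0.25 in GTF2. Genes measured in the same libraries are not independent and also differ in base composition, so this is a description. Members in the longest class (4467 bases or more) had a median of 0.41 and all genes in that class 0.32. In the shortest class (up to 2311 bases) the medians were -0.17 and -0.30. The 10 subunits POLR2C to POLR2L had a median transcript length of 1660 bases and the 6 catalytic subunits 7139. TAF7, at 2295 bases, lay in the shortest class.

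**Figure D4:**
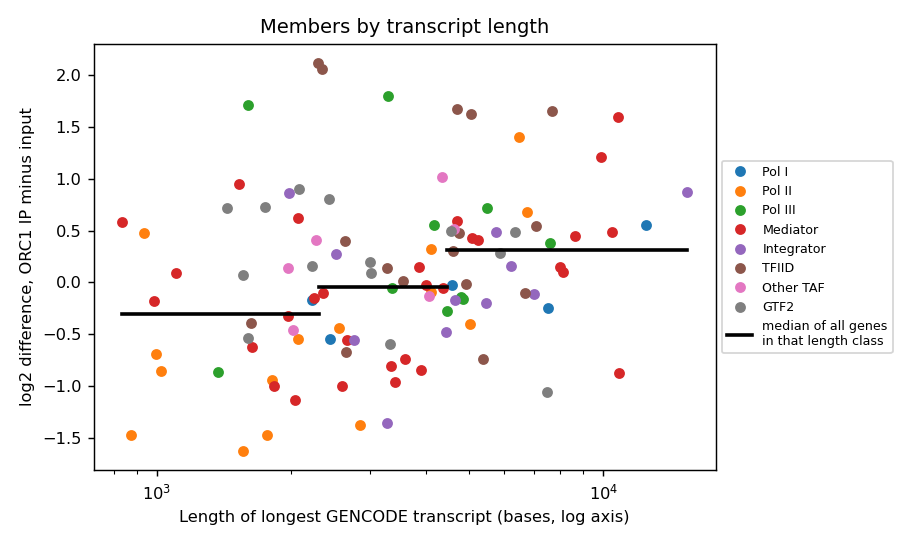
Log2 difference between ORC1 IP and input against the length of the longest GENCODE transcript (bases, log axis) for 107 tested members, coloured by complex. Black bars are the medians of all genes in the 3 length classes, from -0.30 in the shortest to 0.32 in the longest.

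Runs of GAA were counted in the same transcripts because the study examined GAA repeats in ORC1-bound RNA. A run of at least 3 GAA units was found in 16 of 107 members and in 12.9% of all genes tested with a transcript. The longest run in any tested member had 4 units. The windows of 30 bases below show the 4-unit runs of GTF2F1 and POLR3GL, and the 3-unit runs of TAF1, which was high in the IP, and POLR2C, which was low; capitals mark the run, and the sequences come from GENCODE release 44 (GRCh38).
GTF2F1: caggaaaaaGAAGAAGAAGAAgggttcaga
POLR3GL: gaggagaaaGAAGAAGAAGAAgagaaggaa
TAF1: ggagaaagagGAAGAAGAAgcaccgtgagc
POLR2C: tctcaggattGAAGAAGAAactgagtgatt
The runs of GTF2F1, TAF1 and POLR2C lie in coding sequence. GTF2F1, the large TFIIF subunit, was 3190, 3595 and 2960 in the inputs and 20365, 1510 and 5862 in the IPs, with a difference of 0.80 (limma adjusted p = 0.575). Genes with such a run therefore stood on both sides of the inputs, and TAF7 and TAF4 had no run of 3 units.

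Genes that work with these complexes but carry other symbols were taken from a list. Of 61 such genes, all tested, 1 was called higher by limma (2.28% of all genes) and none lower (1.42%), with a median of 0.29 and 38 positive. Their difference from the members was not tested. The gene called higher was BDP1, a subunit of the polymerase III initiation factor TFIIIB, at 1831, 793 and 438 in the inputs and 8168, 4044 and 7443 in the IPs (2.86, limma adjusted p = 0.017). By the study threshold 11 were higher (10.9% of all genes) and 3 lower (7.25%). The 3 lower genes were CCNC, the cyclin of the Mediator kinase module, ZNRD1, a small polymerase I subunit, and SUPT4H1, a subunit of the elongation factor DSIF, which had a difference of -1.05. ZNRD1 had -1.32, and CCNC was 1441, 958 and 754 in the inputs and 352, 828 and 441 in the IPs. TBP itself was 520, 613 and 633 in the inputs and 568, 823 and 450 in the IPs (0.02, limma adjusted p = 0.982).

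Without ORC1 IP replicate 2, 19 members were called higher and 8 lower by limma, against 11.9% and 6.38% of all genes tested. By the study threshold this fit gave 24 higher and 10 lower members, against 15.7% and 9.86% of all genes. Its median was 0.02 over all genes tested. It was -0.76 over the POLR2 genes, 0.53 over polymerase III, 0.67 over TFIID, 0.59 over the other TAFs and 0.57 over the GTF2 genes. The 19 included the 3 called with all libraries as well as TAF1, TAF3, TAF15, POLR3B, POLR3D, POLR3G, POLR3GL and GTF2F1, and the 8 included the 3 lower calls as well as POLR2E, POLR2H, POLR2K, MED28 and GTF2H5. Leaving out input replicate 2 or 3, or ORC1 IP replicate 3, left no member called in either direction by limma, and leaving out ORC1 IP replicate 1 left TAF7 alone. Without input replicate 1, TAF7, POLR3G and POLR3GL were called higher and POLR2C and POLR2G lower. TAF7 had adjusted p from 0.0037 to 0.21 over these 6 fits, and POLR2G from 0.015 to 0.306.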

How the data were processed

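Per the labels, the processing used Trimmomatic, STAR and featureCounts with hg19. Their versions are not repeated here. The study's methods name a Trimmomatic version for the RIP-seq reads, and its reporting summary names STAR and featureCounts versions for RNA-seq. The deposited signal values are read counts divided by a size factor per library: dividing each library by its smallest value gave whole numbers for 100% of values (tolerance 0.001), and these recovered reads gave the depth and entered edgeR and DESeq2. The deposited table also holds the authors' own fold changes and p-values, which were not used. Genes with a mean of at least 10 were tested with limma 3.58.1 (R 4.3.3, trend) on log2(value + 1), 3 ORC1 IP against 3 input libraries, with Benjamini-Hochberg adjustment over 16513 genes. edgeR 4.0.16 and DESeq2 1.42.0 were alternatives, with other pseudocounts, filters, scalings, a replicate block, a spline correction for length and GC, and leaving out each library. The limma step was tested on simulated data. Transcripts, exons and positions came from GENCODE release 44 (GRCh38), matched by Ensembl identifier; GTF2I and TAF15 had no match.

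The labels give the input and the IP of a replicate the same RIP number. Over tested genes, the deviation from the group mean correlated within the 3 numbered pairs at -0.32, -0.24 and 0.22. With 3 libraries per group, these correlations cannot show whether libraries of a number were prepared together. The main fit used no block, and the block is given where it changes a call. The members and gene lists were chosen with earlier results of these data known. Genes named in the text were every called member, the largest and smallest difference in each complex, and a list of core subunits; others were named after their values were seen. A difference between ORC1 IP and input describes recovery with the antibody relative to nuclear RNA, not a change of RNA level in the cells. These bulk libraries do not show how many cells held an RNA. Precision rests on 3 libraries per group.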

Additional observations from a re-analysis of the deposited data

How the results depend on the processing

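The counts of members called higher and lower by limma (3 and 3, where 2.28% and 1.42% of all genes were called) depended on the setting. They were 8 and 5 with DESeq2 (7.67% and 4.35% of all genes), 0 and 0 without the trend (0.866% and 0.581%), 0 and 0 with scaling by total count (0.527% and 0.581%), and 1 and 0 with the length and GC correction (0.84% and 0.448%). Without a filter on low values 1 member was called lower (1.16%). With the replicate block 6 were higher (2.62%) and 1 lower (1.16%), and with the block and the length and GC correction together 1 and 0 (0.417% and 0.174%). Leaving out 1 library gave 0 to 19 higher and 0 to 8 lower, and a median difference from 0.02 to 0.23. By the study threshold, counted under the same alternatives as a choice made after seeing the data, scaling by total count gave 15 lower members (9.33% of all genes), against 9 with the deposited scaling and 7 to 9 under the other alternatives that kept all libraries, and leaving out 1 library gave 7 to 24 higher and 5 to 11 lower. Scaling by total count moved the median of all genes to -0.19.

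The direction turned for INTS1 with DESeq2 (0.13) and edgeR (0.15). With the length and GC correction, with or without the block, it turned for GTF2H1 (-0.088), INTS6 (-0.048), MED1 (-0.45), MED13 (-0.28), MED14 (-0.47), POLR3A (-0.027) and TAF2 (-0.042), and with scaling by total count for GTF2H1 (-0.12), MED1 (-0.11) and MED14 (-0.064). Leaving out 1 library gave ranges across 0 for GTF2H1 (-0.41 to 0.41), INTS1 (-0.57 to 0.69), INTS3 (-0.022 to 1.10), MED1 (-0.035 to 0.21), MED14 (-0.17 to 0.40), MED17 (-0.016 to 0.97), POLR1B (-0.68 to 0.29) and POLR2B (-0.37 to 1.10). None of the 6 called members turned. The cause of these changes was not tested.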
